A study of Mus musculus with 16 samples.

Results

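The genes of the proteasome were followed through germinal centre B cells of Ezh2-mutant and control mice. The rows taken were those whose symbol starts with Psm, then a letter from a to g, then a number, without the immune catalytic subunits Psmb8, Psmb9 and Psmb10. This rule gave 45 of 49584 listed genes, of which 43 passed the filter on low counts. Mutant mice carried Ezh2(Y641F)fl/wt;Cγ1-cre, in which Cre recombinase made from the Cγ1 locus in B cells responding to antigen switches on a mutant allele of the histone methyltransferase Ezh2. Control mice carried Cγ1-cre alone. All mice were C57BL/6J, labelled as litter 1, 3 months old, and had received sheep red blood cells 8 days before their spleens were taken. B220+ FAS+ CD38- cells were sorted into CXCR4- CD86+ centrocytes, the cells of the light zone, and CXCR4+ CD86- centroblasts, the dividing cells of the dark zone. There were 4 libraries each of mutant centrocytes, control centrocytes, mutant centroblasts and control centroblasts.

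The proteasome is the protease that degrades proteins tagged with ubiquitin in the cytosol and nucleus. Its core particle is a barrel of outer alpha rings, which gate entry, and inner beta rings, which hold the cutting sites. The regulatory particle caps the barrel: its lid and ubiquitin receptors catch and strip the tagged protein, and the ATPase ring of its base unfolds it. Dedicated chaperones assemble both parts, other activators can replace the regulatory particle, and B cells also make immune forms of the catalytic subunits. Plasma cell differentiation and antigen presentation both place demands on this machinery.

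The promoters of 4 members are shown first as examples. A motif frequent among regulatory particle genes stands in those of Psmc1 and Psmd4, which were lower in centrocytes of both genotypes. Another motif stands in that of the catalytic subunit Psmb5, which was lower in control centrocytes, and neither stands in that of the activator Psme1. The 4 were picked by hand and cannot show a link between motif and level. Each line gives the 250 bases before the start in RefSeq (GRCm38.p6), read 5′ to 3′ on the strand of the gene. They lie at chr12:100109952-100110201 on the plus strand for Psmc1, chr3:95042615-95042864 on the minus strand for Psmd4, chr14:54617996-54618245 on the minus strand for Psmb5 and chr14:55578244-55578493 on the plus strand for Psme1. In the GENCODE M21 annotation Psme1 starts earlier, at chr14:55578123, so its window lies inside that gene model and describes the RefSeq start only. Capitals mark CCGGAAG, a core of the site bound by ETS family factors, and TGACNNNGC, a core of the antioxidant response element bound by NRF1 and NRF2, on either strand.
Psmc1: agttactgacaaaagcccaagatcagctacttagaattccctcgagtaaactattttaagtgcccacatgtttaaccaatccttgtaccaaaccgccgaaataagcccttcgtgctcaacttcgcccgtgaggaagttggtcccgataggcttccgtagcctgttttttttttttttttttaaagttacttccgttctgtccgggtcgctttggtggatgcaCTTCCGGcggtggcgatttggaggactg
Psmd4: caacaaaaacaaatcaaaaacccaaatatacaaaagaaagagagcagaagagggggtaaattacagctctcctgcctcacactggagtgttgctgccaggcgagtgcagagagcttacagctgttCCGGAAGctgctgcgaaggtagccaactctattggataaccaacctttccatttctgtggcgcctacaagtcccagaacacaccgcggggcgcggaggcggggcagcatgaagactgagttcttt
Psmb5: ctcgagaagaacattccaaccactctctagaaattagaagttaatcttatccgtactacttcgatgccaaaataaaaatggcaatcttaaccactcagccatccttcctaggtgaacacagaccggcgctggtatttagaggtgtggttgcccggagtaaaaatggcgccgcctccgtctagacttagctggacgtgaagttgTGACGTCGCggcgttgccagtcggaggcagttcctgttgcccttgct
Psme1: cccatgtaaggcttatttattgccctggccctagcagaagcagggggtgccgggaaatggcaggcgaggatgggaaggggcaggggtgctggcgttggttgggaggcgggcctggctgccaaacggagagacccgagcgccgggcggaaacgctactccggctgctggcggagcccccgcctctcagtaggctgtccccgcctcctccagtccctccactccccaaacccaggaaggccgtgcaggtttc

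Among the 37 members with an entry in the promoter table, CCGGAAG stood on either strand in these 250 bases of 12 (32.4%). It stood in 8 of 14 regulatory particle genes (57.1%), namely Psmc1, Psmc2, Psmc6, Psmd2, Psmd4, Psmd6, Psmd11 and Psmd12. In the core particle it stood in 1 of 11 (9.09%), Psma6. The other carriers were Psme3, Psme4 and Psmg1. The carriers Psmc6, Psmd11, Psme3, Psme4 and Psmg1 were called lower in centrocytes of neither genotype. Psmd13, called lower in both, carried CCGGAAG only with the 50 bases after the start included. The core genes Psma1, Psma2, Psma5, Psmb4 and Psmb5 fell in controls without it. The same letters stood in 16.3% of 9643 tested genes and in 7.83% of all 27025 genes of the table. With the 50 bases after the start included, the shares were 64.3% of regulatory particle genes, 9.09% of core particle genes and 20.9% of tested genes. TGACNNNGC stood in 5 of the 37 members (13.5%), against 1350 of 9643 tested genes, and its carriers were Psmb5, Psmb6, Psmc6, Psmd9 and Psmd12. CCAAT, the letters read by the factor NF-Y, stood in 13 of 37 members (35.1%), against 40.8% of tested genes. It stood in 6 of 11 core particle genes and in 4 of 14 regulatory particle genes. The motifs were counted separately and their sites may overlap. A match of letters describes these windows and is no evidence of binding, and no test was made of these shares. Psma8, Psmb1, Psmb2, Psmb7, Psmc3, Psmd3, Psmd7 and Psmg2 had no entry in the table.

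Libraries held 35230563 to 44466911 counted reads, and precision is set by the spread between libraries, since copies made by PCR are not independent molecules. The sort genes followed the labels: Cxcr4 was lower and Cd86 higher in centrocytes, with log2 fold changes of -1.32 and 0.93 in mutants and -1.17 and 0.95 in controls. Ezh2 counts were lower in mutants, with log2 fold changes of -0.37 ± 0.12 in centrocytes and -0.38 ± 0.12 in centroblasts (SE; edgeR adjusted p = 0.0395 and 0.0486). A count per gene cannot tell the mutant allele from the normal one. Mutant centrocyte libraries 3 and 4 stood apart in summed macrophage markers, with 277 and 282 CPM (counts per 1000000 counts of the scaled library), against 71.7 and 47.5 CPM in mutant centrocyte libraries 1 and 2. Over all tested genes the control centroblasts, the reference of the zone comparison in controls, differed most from each other. The chi-square per degree of freedom of their counts was 257 between libraries 1 and 4 and 143 between 1 and 3. Within the other groups it was at most 79.0. Y-linked transcripts marked libraries 1 and 2 of every group as male and 3 and 4 as female.

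All constitutive subunits of the proteasome were expressed in these cells, and the counted levels of the particles' genes differed widely. Exon length here is the union of all annotated exons of a gene, which can be longer than its main transcript. Ranks per length thus also depend on the annotation, and its part in these differences was not tested. Over the 16 libraries the 43 tested members averaged 13.5 to 321 CPM, and per length 5.30 to 171 CPM per kb of exon with a median of 52.7. In the alpha ring Psma6 was highest at 171 CPM per kb and Psma3 lowest at 7.09 CPM per kb. In the beta ring the range ran from 148 CPM per kb for Psmb2 to 24.6 CPM per kb for Psmb3. Among the ATPases of the base Psmc5 had 116 CPM per kb and Psmc6 33.2 CPM per kb. The ubiquitin receptor Psmd4 stood at 71.5 CPM per kb and the large scaffold Psmd1 at 28.4 CPM per kb. In the lid Psmd8 had 96.2 CPM per kb and Psmd11 17.5 CPM per kb.

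The helpers were mostly lower than the subunits on the scale per length. The 4 core assembly chaperones ran from 24.2 CPM per kb for Psmg4 to 9.55 CPM per kb for Psmg3, and the 3 base chaperones from 37.6 CPM per kb for Psmd10 to 5.30 CPM per kb for Psmd9. The inhibitor Psmf1 stood at 10.3 CPM per kb. The activators ran from 129 CPM per kb for Psme1, a chain of the interferon-inducible activator, to 13.7 CPM per kb for Psme4, a nuclear activator. Psma8, an alpha subunit of the testis, had 0 to 10 counts per library, and Psmb11, the catalytic subunit of the cortical thymus epithelium, 0 to 2 counts. These were the 2 members that did not pass the filter.

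**Figure D1:**
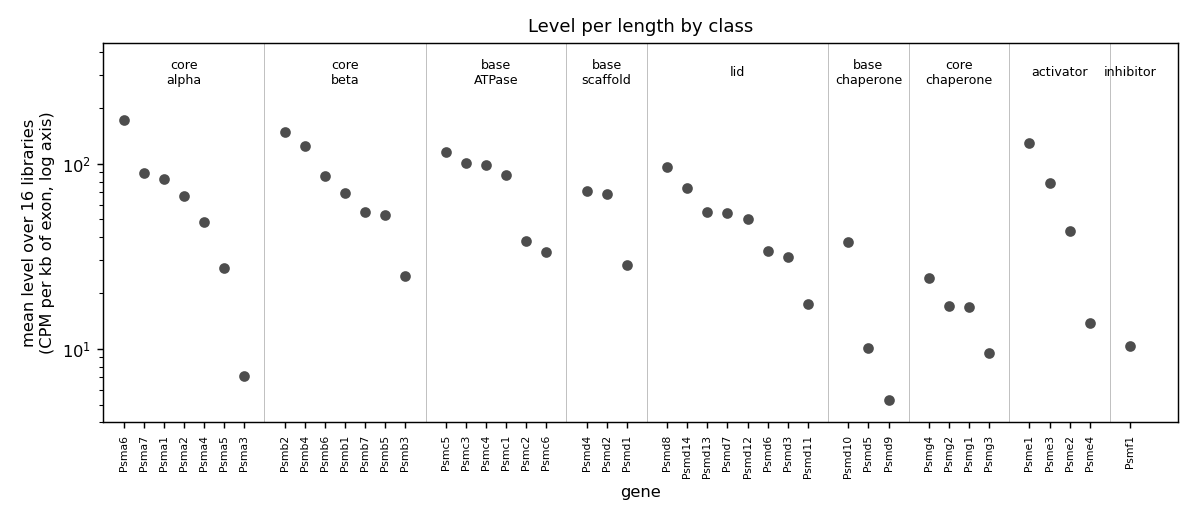
Mean level over 16 libraries of the 43 tested members in CPM per kb of exon on a log axis, with 1 point per gene, grouped by role and sorted within each group. Psma6 at 171 and Psmb2 at 148 CPM per kb are at the top, and Psmd9 at 5.30 CPM per kb is at the bottom.

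In mutant mice, 5 proteasome genes were called lower in centrocytes than in centroblasts, and 2 of these calls stayed under every setting tried. The 5 were 2 genes of the base, 2 of the lid and 1 of the beta ring. Of the 43 tested members 5 fell and 0 rose (edgeR quasi-likelihood test, Benjamini-Hochberg adjusted p under 0.05 over 15240 genes). Of all tested genes 7.07% fell and 8.92% rose in this comparison, so the share of members called lower was not far above that of all genes. The median log2 fold change was -0.26 over the members and 0.018 over all tested genes. In bulk RNA, fewer cells of a type and less RNA of a gene per cell cannot be told apart. All 31 subunits of core and regulatory particle had negative values, of which 1 of 14 core genes and 4 of 17 regulatory particle genes passed the test. With the replicate number as a block, 3 fell, which were Psmb7, Psmc1 and Psmd13. With gene length and GC content as an offset in the fit, 20 fell and 1 rose, and of all tested genes 2383 then fell and 1634 rose, against 1078 and 1360 without it.

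Psmd13 (chr7:140881968-140898643, plus strand, mm10 in GENCODE M21), a structural subunit of the lid, had 141, 152, 166 and 156 CPM in mutant centrocytes, against 204, 238, 206 and 241 CPM in mutant centroblasts. Psmc1 (chr12:100110154-100123405, plus strand), an ATPase of the base, had 137, 130.1, 145 and 134 CPM in mutant centrocytes, against 190.5, 209, 181 and 199 CPM in mutant centroblasts. Every mutant centrocyte library was below every mutant centroblast library for both genes. The log2 fold changes were -0.53 ± 0.11 for Psmd13 and -0.51 ± 0.11 for Psmc1 (SE, edgeR adjusted p = 0.00309 and 0.00323), and both calls stayed in every other fit.

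The other 3 calls were weaker. Psmd4 (chr3:95032694-95042614, minus strand), the ubiquitin receptor, had 181, 187, 171 and 179.8 CPM in mutant centrocytes, against 242, 254, 222 and 248 CPM in mutant centroblasts, without overlap. Psmb7 (chr2:38588036-38644087, minus strand), which carries the trypsin-like site, had 146, 151, 208 and 162 CPM in mutant centrocytes, against 195, 256, 219 and 226 CPM in mutant centroblasts, and mutant centrocyte library 3 reached into the range of the centroblasts. Psmd7 (chr8:107580381-107588464, minus strand), the lid partner of the deubiquitinase Psmd14, had 112, 109, 106 and 114 CPM in mutant centrocytes, against 133, 129, 146 and 137 CPM in mutant centroblasts, again without overlap. Their log2 fold changes were -0.43 ± 0.13, -0.43 ± 0.13 and -0.31 ± 0.095 (SE, edgeR adjusted p = 0.0297, 0.0277 and 0.0347). Each lost its call in at least 6 of the fits that left out 1 library. The count of falls then ranged from 2 (without mutant centrocyte library 1, 2 or 4) to 10 (without mutant centrocyte library 3). It was 3 without mutant centroblast library 1, 2 or 3, 9 without control centroblast library 1, and 6 without mutant centrocyte libraries 3 and 4. Over all tested genes 769, 832 and 911 fell without mutant centrocyte library 1, 2 or 4. Without library 3 of that group 1002 fell, against 1078 with all libraries.

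Of the members 11 had mutant centrocyte libraries all below the mutant centroblast libraries, against 10.5% of all tested genes. Of the alternative activators 0 passed the test, with 3 of 4 positive and a median of 0.10. Psme1 had 280.4, 319, 403 and 311 CPM in mutant centrocytes, against 260.3, 344, 290.2 and 299 CPM in mutant centroblasts, and these overlap (0.14 ± 0.15, SE, edgeR adjusted p = 0.586).

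In control mice, genes of both particles were lower in centrocytes than in centroblasts. Of the 43 tested members 22 fell and 0 rose, against 12.9% and 14.9% of all tested genes. The median log2 fold change was -0.37 over the members and 0.0049 over all tested genes. The falls covered both particles: 8 of 14 core genes fell, with a median of -0.45, and 12 of 17 regulatory particle genes, with a median of -0.40. Within the regulatory particle these were 7 of 9 base genes and 5 of 8 lid genes. With the replicate number as a block, 20 of the 22 kept their calls, and Psmc4 and Psmd2 lost theirs. In a fit of the 2 compared groups alone 16 of the 22 kept their calls. Psmb5, Psmc4, Psmd1, Psmd2, Psmd4 and Psmd6 lost theirs there.

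Among the ATPases of the base, Psmc1 had 173, 123, 131 and 115 CPM in control centrocytes, against 205, 197, 214 and 214 CPM in control centroblasts. Every control centrocyte library was below every control centroblast library. The log2 fold change was -0.62 ± 0.11 (SE), or 1.53-fold lower (edgeR adjusted p = 0.000467). Psmc2, Psmc3 and Psmc4 also fell, by 0.37, 0.51 and 0.37 on the log2 scale. So did the scaffolds Psmd1 and Psmd2, by 0.33 and 0.32, and Psmd4 by 0.46. Of the 16 fits that left out 1 library, Psmc4 kept its call in 11 and Psmd2 in 4.

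In the lid, Psmd13 had 170.3, 132, 134 and 133 CPM in control centrocytes, against 203, 195, 214 and 259.9 CPM in control centroblasts. Psmd8 (chr7:29174188-29180701, minus strand), the lid subunit that joins last in yeast, had 266, 196, 199 and 198 CPM in control centrocytes, against 332, 286, 316 and 381 CPM in control centroblasts. Neither gene's libraries overlapped, and in both control centrocyte library 1 stood well above the other 3 of its group. Both log2 fold changes were -0.61 (SE 0.11 for Psmd13 and 0.12 for Psmd8, edgeR adjusted p = 0.000624 and 0.00144). The other lid genes that fell were Psmd6, Psmd12 and Psmd14, the deubiquitinase of the lid. Psmd7, the partner of Psmd14, missed the threshold at -0.24 ± 0.095 (SE, edgeR adjusted p = 0.0741).

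In the core, Psmb1 (chr17:15475021-15499751, minus strand), a beta subunit without a cutting site, had 251, 214, 206 and 213 CPM in control centrocytes, against 327, 319.6, 327 and 383 CPM in control centroblasts. Psmb7 had 169.7, 140.0, 135 and 128 CPM in control centrocytes, against 243, 203, 198 and 225 CPM in control centroblasts. All control centrocyte libraries lay below all control centroblast libraries for both genes. The log2 fold changes were -0.62 ± 0.14 for Psmb1 and -0.60 ± 0.13 for Psmb7 (SE, edgeR adjusted p = 0.00336 and 0.00194). The other core genes that fell, by 0.41 to 0.54 on the log2 scale, were the alpha subunits Psma1, Psma2, Psma5 and Psma6, the beta subunit Psmb4, and Psmb5, which holds the chymotrypsin-like site. Psmb3 was nearest to the threshold among those that missed it, with -0.49 ± 0.18 (SE, edgeR adjusted p = 0.0580).

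The assembly factors split. Psmd10 (chrX:140948429-140956728, minus strand), also called gankyrin, a chaperone of the base ATPases, had 48.6, 41.3, 37.7 and 37.6 CPM in control centrocytes, against 76.7, 56.7, 61.0 and 62.1 CPM in control centroblasts. The groups did not overlap. It had the most negative log2 fold change of the members, -0.63 ± 0.14 (SE, edgeR adjusted p = 0.00232). Psmd5, another base chaperone, fell by 0.42. None of the 4 core chaperones, the 4 alternative activators or the inhibitor Psmf1 passed the test, and the activators' median was 0.010. Psme1 had 286, 230.0, 279 and 235 CPM in control centrocytes, against 209, 211, 284 and 319 CPM in control centroblasts, ranges that overlap.

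The control comparison rests in part on single libraries. Between 11 (without control centrocyte library 2) and 26 (without control centroblast library 1) members fell when 1 library was left out, and 12 without control centrocyte library 4. Psma1, Psmb1, Psmb4, Psmb7, Psmc1, Psmd5, Psmd8, Psmd10, Psmd12 and Psmd13 fell in every such fit and under every other setting tried. Of the 43 members, 16 had all control centrocyte libraries below all control centroblast libraries, against 12.3% of all tested genes.

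Of the 5 genes that fell in mutants 4 also fell in controls, which is 80% of the mutant list and 18.2% of the control list. The 2 lists share no libraries, but 1 estimate of the spread over all 16 libraries served both. In controls 22 of the 43 members were called, so this overlap is no independent agreement. Psmd7, which was called in mutants only, had 134, 100.5, 111 and 105 CPM in control centrocytes, against 126, 127, 129 and 148 CPM in control centroblasts.

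**Figure D2:**
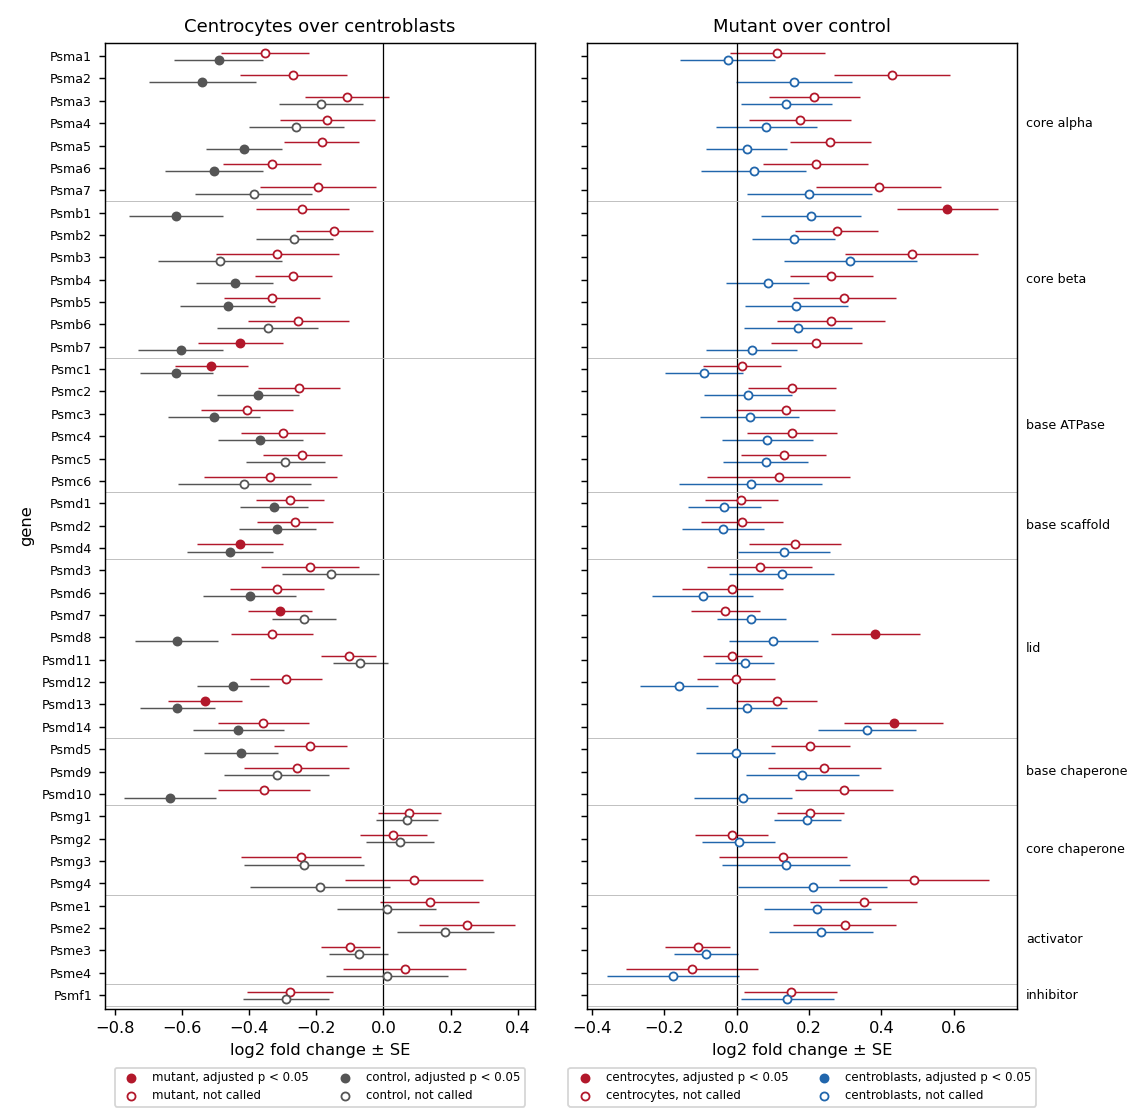
Log2 fold changes with SE of the 43 tested members, grouped by role, for centrocytes over centroblasts in mutant and control mice (left) and for mutant over control in centrocytes and centroblasts (right), with filled points where the edgeR adjusted p was under 0.05. On the left all core, base and lid genes lie below 0 and the activators lie around it, and on the right 3 points are filled.

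Other lists moved with the zones. Of 12 genes of mitosis 10 fell in mutant centrocytes, and their summed level was 2279 ± 146 CPM there, against 3541 ± 380 CPM in mutant centroblasts (SD, n = 4). In controls 8 of 12 fell, with 3444 ± 323 CPM in centrocytes and 4491 ± 716 CPM in centroblasts. Of 8 naive B cell markers 5 rose in each genotype, with sums of 1705 ± 123 CPM in mutant centrocytes against 716 ± 64.6 CPM in mutant centroblasts, and of 1631 ± 149 CPM in control centrocytes against 589 ± 69.6 CPM in control centroblasts. Plasma cell markers moved in both directions, with 1 of 7 rising and 3 falling in mutants and 2 rising and 2 falling in controls. Their sum was 1284 ± 145 CPM in mutant centrocytes against 2050 ± 312 CPM in mutant centroblasts, and 1293 ± 115 CPM in control centrocytes against 1999 ± 168 CPM in control centroblasts, while the median log2 fold change over the list was -0.41 in mutants and 0.094 in controls. Of 14 macrophage markers 5 rose in mutants and 2 in controls, with sums of 170 ± 128 CPM in mutant centrocytes against 62.5 ± 31.5 CPM in mutant centroblasts, and of 85.3 ± 14.4 CPM in control centrocytes against 53.1 ± 22.9 CPM in control centroblasts. Of 7 T cell markers 2 rose in each genotype, with sums of 306 ± 17.5 CPM in mutant centrocytes against 189.8 ± 13.2 CPM in mutant centroblasts, and of 244 ± 47.2 CPM in control centrocytes against 141 ± 30.4 CPM in control centroblasts. None of the macrophage or T cell markers fell. The part of these lists in the proteasome result was not tested.

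Whether the zone difference itself depended on genotype was tested as an interaction. Of 43 members 0 passed by edgeR and 0 by DESeq2, against 0% of the 15240 tested genes by edgeR, of which 429 had an unadjusted p under 0.05. None of the members had an unadjusted p under 0.05 and 37 of 43 were positive. The smallest p was that of Psmb1, at 0.38 ± 0.20 (SE, edgeR adjusted p = 0.999), followed by Psmd8 at 0.28 ± 0.17.

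In centrocytes, 3 subunits were called higher in mutants than in controls, none of them under every setting tried. Of the 43 tested members 3 rose and 0 fell, against 7.37% and 9.15% of all tested genes, so the share called was close to that of all genes. The median log2 fold change was 0.17 over the members and 0.0014 over all tested genes. All 14 core genes were positive, with a median of 0.26 and 1 call, and 13 of 17 regulatory particle genes were positive, with a median of 0.11 and 2 calls.

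Psmb1 had 278, 301, 431 and 316 CPM in mutant centrocytes, against 251, 214, 206 and 213 CPM in control centrocytes. Psmd14 (chr2:61711694-61800376, plus strand) had 196, 185, 251 and 197 CPM in mutant centrocytes, against 174, 151, 139.6 and 149.5 CPM in control centrocytes. For both genes every mutant library was above every control library, and mutant centrocyte library 3 was the highest. Only these 2 members were free of overlap in this direction, against 11.1% of all tested genes. The log2 fold changes were 0.58 ± 0.14 for Psmb1 and 0.43 ± 0.14 for Psmd14 (SE, edgeR adjusted p = 0.00870 and 0.0376). Psmd8 had 251, 287, 308 and 274 CPM in mutant centrocytes, against 266, 196, 199 and 198 CPM in control centrocytes, so that control centrocyte library 1 lay inside the mutant range. Its log2 fold change was 0.38 ± 0.12 (SE, edgeR adjusted p = 0.0414).

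These calls depended on the libraries. Without mutant centrocyte libraries 3 and 4, which had the high macrophage markers, 0 members passed, and the edgeR adjusted p values were 0.110 for Psmb1, 0.248 for Psmd14 and 0.207 for Psmd8. This fit kept only mutant centrocyte libraries 1 and 2, both male. Calls fell over all genes too: 495 of 16029 tested genes rose and 729 fell, against 1123 and 1394 of 15240 with all libraries. Of 14 tested macrophage markers 2 rose and 1 fell in mutant centrocytes. Their sum was 47.5 to 282 CPM in mutant centrocytes, against 67.8 to 102 CPM in control centrocytes, and Vsig4, the fifteenth gene of the list, was under the filter on low counts. Leaving out 1 library at a time gave between 1 (without control centrocyte library 2, 3 or 4 or mutant centrocyte library 3 or 4) and 9 (without control centrocyte library 1) rises. Of all tested genes 619 to 830 rose in the fits with 1 rise and 1228 in the fit with 9, against 1123 with all libraries. Psmb1 kept its call in all 16 of these fits, with an edgeR adjusted p of at most 0.0341. Psmd14 lost it in 7, without control centroblast library 2, control centrocyte libraries 2, 3 or 4, or mutant centrocyte libraries 1, 3 or 4 (edgeR adjusted p up to 0.124). Psmd8 lost it in 9, without mutant centrocyte libraries 2, 3 or 4, control centrocyte libraries 2, 3 or 4, mutant centroblast libraries 3 or 4, or control centroblast library 3 (edgeR adjusted p up to 0.127). Psmd8 also lost its call with the replicate block and without the filter on low counts. The mitosis list was lower, with 6 of 12 genes called and 2279 ± 146 CPM in mutant centrocytes, against 3444 ± 323 CPM in control centrocytes (SD, n = 4). The part of macrophage RNA and of mitosis in these rises was not tested.

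Of the members that missed the threshold, Psma2 and Psmb3 had the smallest p. Psma2 had 205, 218, 329 and 227 CPM in mutant centrocytes, against 224, 161, 180.4 and 161 CPM in control centrocytes. Psmb3 had 49.4, 54.0, 73.8 and 51.3 CPM in mutant centrocytes, against 50.3, 34.2, 40.9 and 37.8 CPM in control centrocytes. Both sets of libraries overlapped, and mutant centrocyte library 3 was the highest for each. The log2 fold changes were 0.43 for Psma2 and 0.48 for Psmb3 (edgeR adjusted p = 0.0751 and 0.0806).

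**Figure D3:**
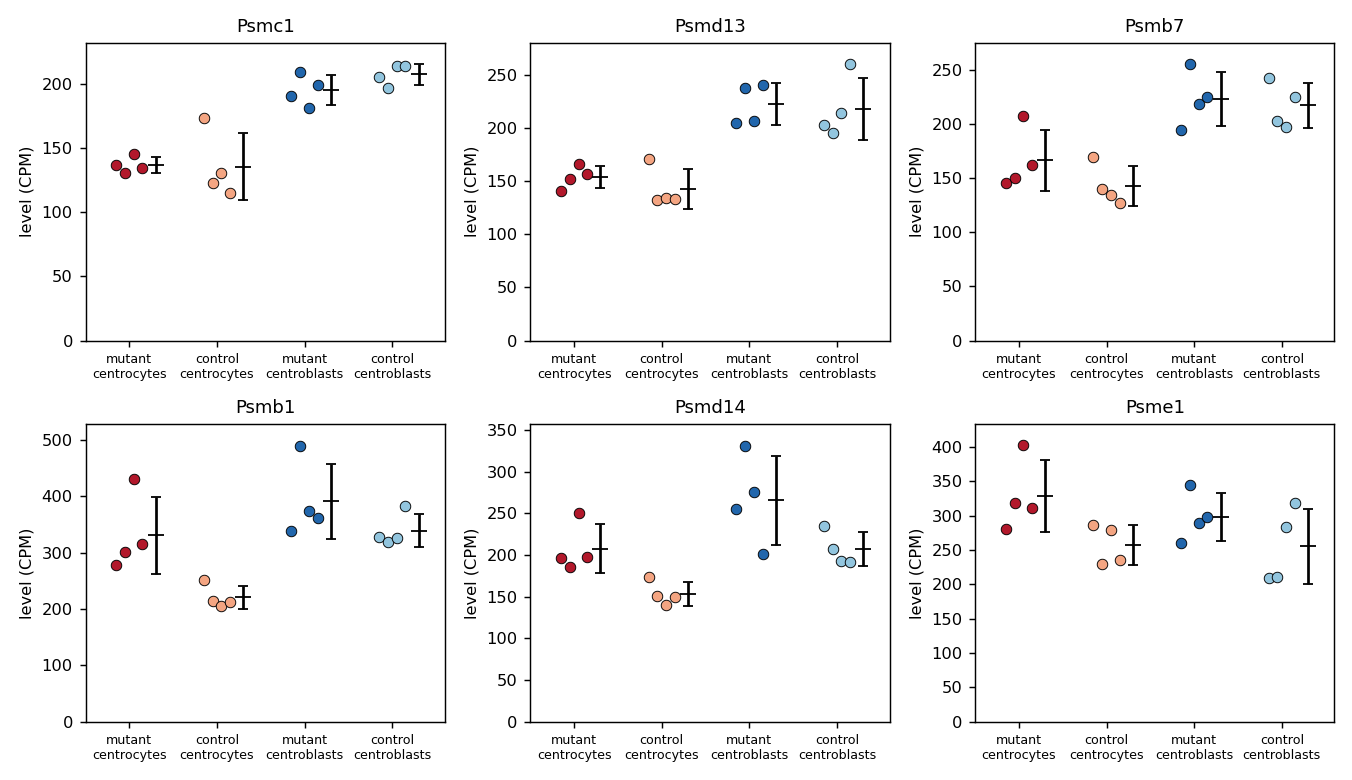
Level in CPM of Psmc1, Psmd13, Psmb7, Psmb1, Psmd14 and Psme1 in each of the 16 libraries, with 1 point per library, and mean ± SD (n = 4) beside each group. Psmc1 and Psmd13 are lower in both centrocyte groups than in the centroblast groups, Psmb1 and Psmd14 are higher in mutant than in control centrocytes, and the groups of Psme1 overlap.

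In centroblasts 0 of 43 members passed the test by edgeR and 0 by DESeq2, against 4.06% of all tested genes that rose and 6.4% that fell by edgeR. At an unadjusted p under 0.05 there were 2, Psmd14 and Psmg1, against 3470 of the 15240 tested genes. Psmd14 had 255, 331, 276 and 201 CPM in mutant centroblasts, against 235, 207, 193 and 192 CPM in control centroblasts. Its log2 fold change was 0.36 ± 0.14 (SE, edgeR adjusted p = 0.110), and 3 of 4 mutant libraries were above all control libraries. Psmg1, a chaperone of the alpha ring, had 22.7, 22.6, 24.4 and 24.9 CPM in mutant centroblasts, against 20.2, 21.2, 19.2 and 22.0 CPM in control centroblasts. Its libraries did not overlap, at 0.20 ± 0.093 (SE, edgeR adjusted p = 0.219), the only member of which this held, against 6.36% of all tested genes. The median over the members was 0.082, against 0.0083 over all tested genes, and 13 of 14 core genes and 12 of 17 regulatory particle genes were positive. Among all genes with an exon length, the shortest of 3 equal groups also had a median of 0.082, and 18 of the 43 members lie in it. With gene length and GC content as an offset, the medians were 0.10 over the members and 0.057 over all tested genes. The part of length in this shift was otherwise not tested.

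Summed over their genes, both particles followed the zones in the same direction. The 14 core genes summed to 2287 ± 386 CPM in mutant centrocytes, 1836 ± 211 CPM in control centrocytes, 2748 ± 366 CPM in mutant centroblasts and 2526 ± 185 CPM in control centroblasts (SD, n = 4 each). The 17 regulatory particle genes summed to 2829 ± 150 CPM in mutant centrocytes, 2592 ± 313 CPM in control centrocytes, 3553 ± 219 CPM in mutant centroblasts and 3436 ± 208 CPM in control centroblasts. For the regulatory particle, all libraries of centrocytes lay below all those of centroblasts in both genotypes. For the core particle this held in controls, and in mutants library 3 of centrocytes, at 2853 CPM, lay inside the range of the centroblasts. All 45 members together took 0.606% ± 0.061 of the counts in mutant centrocytes, 0.565% ± 0.049 in control centrocytes, 0.720% ± 0.048 in mutant centroblasts and 0.695% ± 0.044 in control centroblasts.

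**Figure D4:**
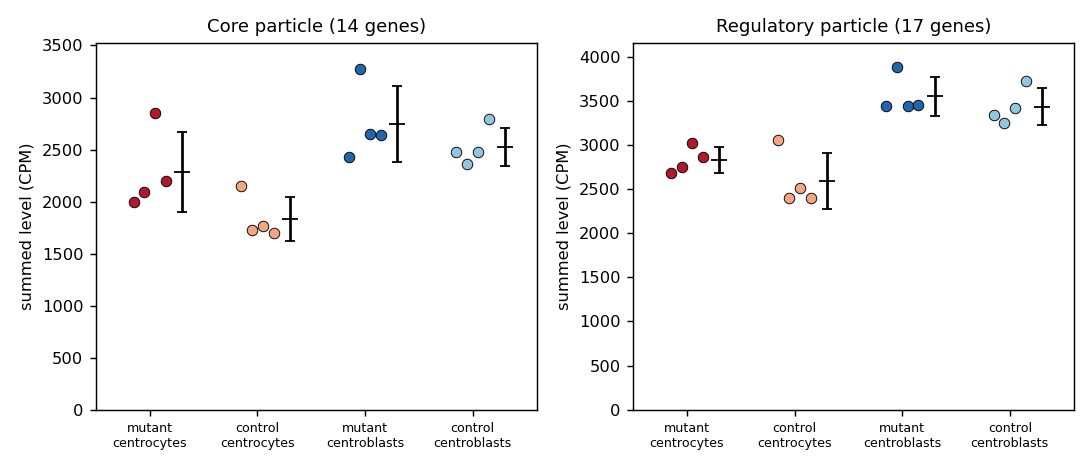
Summed level in CPM of the 14 core particle genes (left) and the 17 regulatory particle genes (right) in each of the 16 libraries, with mean ± SD (n = 4) beside each group. The control centrocytes have the lowest mean for both particles, at 1836 CPM for the core and 2592 CPM for the regulatory particle.

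The balance between the particles was compared per length, as the mean CPM per kb of the core genes over that of the regulatory particle genes. The ratio was 1.21, 1.23, 1.46 and 1.26 in mutant centrocytes, against 1.15, 1.18, 1.15 and 1.18 in control centrocytes. In mutant centroblasts it was 1.14, 1.31, 1.24 and 1.22, against 1.19, 1.17, 1.15 and 1.19 in control centroblasts. The mutant centrocytes lay above the control centrocytes without overlap, and the centroblast groups overlapped. The means were 1.29 ± 0.12 in mutant centrocytes, 1.16 ± 0.016 in control centrocytes, 1.22 ± 0.070 in mutant centroblasts and 1.17 ± 0.018 in control centroblasts (SD, n = 4 each). No test was made of this ratio.

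The same balance in the fit is the mean log2 fold change of the core genes minus that of the regulatory particle genes. It was 0.19 for mutant over control centrocytes and 0.087 for mutant over control centroblasts. For centrocytes over centroblasts it was 0.066 in mutants and -0.039 in controls. Without mutant centrocyte library 3 the value for mutant over control centrocytes was 0.12, and that for centrocytes over centroblasts in mutants was -0.0070. Core genes had shorter exon lengths, with a median of 2335 bases against 2820 bases for the regulatory particle. Among all genes with a length, the shortest group of 3 equal groups had a median log2 fold change of 0.13 for mutant over control centrocytes, and the longest had -0.089. With gene length and GC content as an offset, the difference between core and regulatory particle was 0.15. The part of length in the balance was otherwise not tested.

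The immune forms of the catalytic subunits, which replace Psmb5, Psmb6 and Psmb7 in new core particles, were also followed. Psmb8, Psmb9 and Psmb10 passed the test in none of the comparisons, and in controls their log2 fold changes for centrocytes over centroblasts were -0.18 ± 0.13, -0.04 ± 0.17 and -0.04 ± 0.24 (SE). For mutant over control centrocytes all 3 were positive, at 0.16 to 0.46. Psmb10 had 139, 179, 184 and 170 CPM in mutant centrocytes, against 131, 100, 134 and 122 CPM in control centrocytes. Of the 3 only Psmb10 was free of overlap there, against 11.1% of all tested genes. The ratio of the summed CPM per kb of the immune subunits to that of Psmb5, Psmb6 and Psmb7 was 1.97 ± 0.099 in mutant centrocytes, 1.99 ± 0.14 in control centrocytes, 1.60 ± 0.080 in mutant centroblasts and 1.54 ± 0.24 in control centroblasts (SD, n = 4 each). Centrocyte libraries lay above centroblast libraries in both genotypes, at 1.84 to 2.08 against 1.49 to 1.69 in mutants and 1.83 to 2.12 against 1.23 to 1.76 in controls. In this ratio mutants and controls overlapped in both cell types. No test was made of this ratio.

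**Figure D5:**
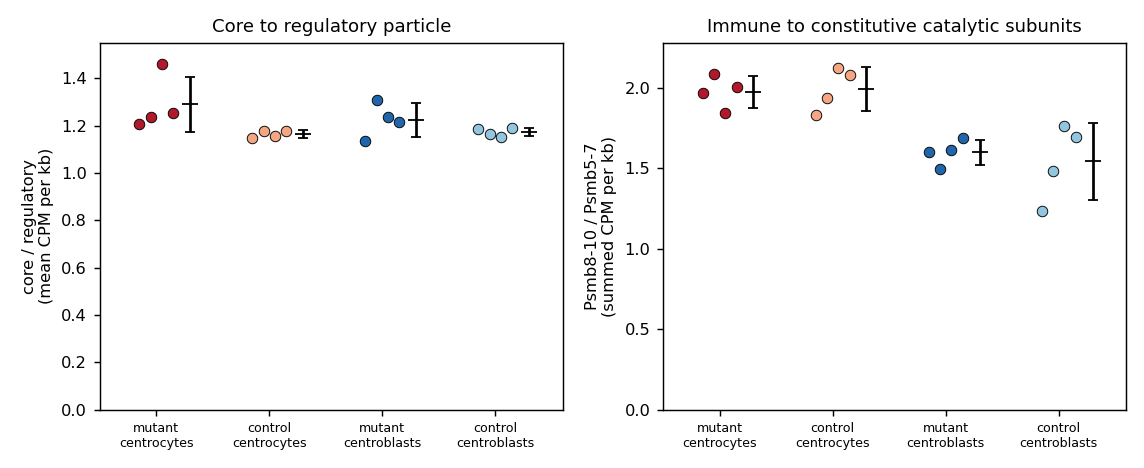
Ratio of the mean level per length of core to regulatory particle genes (left) and of the summed level per length of the immune to the constitutive catalytic subunits (right) in each of the 16 libraries, with mean ± SD (n = 4) beside each group. On the left mutant centrocyte library 3 stands highest at 1.46, and on the right both centrocyte groups, with means of 1.97 and 1.99, stand above the centroblast groups.

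Of 9 genes of proteins that bind the proteasome under other names, 2 fell and 0 rose in mutant centrocytes against mutant centroblasts, and 5 fell and 1 rose in controls. Of all tested genes 7.07% fell and 8.92% rose in mutants, and 12.9% fell and 14.9% rose in controls. Pithd1 had log2 fold changes of -0.55 ± 0.094 in mutants and -0.78 ± 0.095 in controls (SE, edgeR adjusted p = 0.000554 and 1.39e-05). In controls the falls included Shfm1, a small subunit of the lid, at -0.63 ± 0.16, and the core maturation factor Pomp at -0.38 ± 0.13 (SE, edgeR adjusted p = 0.00637 and 0.0379). The ubiquitin receptor Adrm1 rose in control centrocytes, at 0.46 ± 0.17 (SE, edgeR adjusted p = 0.0495). Mutant centrocytes had more Shfm1 and Pithd1 than control centrocytes, with log2 fold changes of 0.60 ± 0.16 and 0.42 ± 0.095 (SE, edgeR adjusted p = 0.0150 and 0.00547). These were 2 of the 9, against 7.37% of all tested genes that rose. Shfm1 had 145, 149, 206 and 150 CPM in mutant centrocytes, against 130, 101, 103 and 95.9 CPM in control centrocytes, and mutant library 3 was again the highest. How these 2 calls depend on single libraries is not given here.

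Upstream of the proteasome, 3 of 14 genes of ubiquitin and its shuttle factors fell and 1 rose in mutant centrocytes against mutant centroblasts, and 5 fell and 1 rose in controls. With 14 genes, the 1 rise is near the share over all tested genes in both genotypes. The shuttle Rad23b fell by 0.41 in mutants and by 0.53 in controls on the log2 scale, and the ubiquitin-activating enzyme Uba1 by 0.35 in mutants and by 0.41 in controls. The segregase Vcp fell by 0.33 in controls. Rps27a, which encodes ubiquitin fused to a ribosomal protein, rose by 0.59 in mutants and by 0.94 in controls. For mutant over control, Ubqln2, another shuttle, fell by 0.60 in centrocytes and by 0.40 in centroblasts (edgeR adjusted p = 0.00273 and 0.0422).

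Of 9 genes of the pathway by which the transcription factor NRF1 raises proteasome genes, 1 fell and 1 rose in mutant centrocytes against mutant centroblasts, and 2 fell and 1 rose in controls. These counts of 9 are near the shares over all tested genes, and the genes below are given as single values. Ngly1, the deglycosylating enzyme that activates NRF1, fell by 0.46 in mutants and by 0.70 in controls. Mafg, a partner of NRF1 on DNA, rose by 0.45 in mutants and by 0.71 in controls, and Nfe2l2, which encodes NRF2, fell by 0.37 in controls. Nfe2l1, which encodes NRF1 itself, had 0.15 ± 0.12 in mutants and 0.18 ± 0.12 in controls (SE, edgeR adjusted p = 0.446 and 0.285). For mutant over control, Nfe2l2 rose by 0.44 in centrocytes and Ngly1 fell by 0.60 in centroblasts (edgeR adjusted p = 0.00256 and 0.00804).

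Some counts are less certain. Exons of Psma4, Psma5, Psmb7, Psmc3, Psmd1, Psmd3, Psmd9, Psmd13 and Psme1 overlap a gene on the opposite strand, and reads of both cannot be told apart if counting ignored strand. Exons of Psmb5, Psmd1 and Psmg3 overlap another gene on the same strand. Psme2 has a near-identical copy, Psme2b, with which reads could be shared.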

How the data were processed

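RNA of 16 libraries was sequenced after TruSeq preparation, per the labels. The authors deposited whole-number read counts per gene symbol, not normalized, with 35230563 to 44466911 counts per library. The submitters' processing notes name STAR 2.5.3a, featureCounts 1.4.5-p1 (Subread), Trim Galore, cutadapt and the build mm10. Annotation, strand and the treatment of multi-mapping reads are not given in the sources used here. Naive B cells, named in the design text, are not analysed here.

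Counts were fitted in R 4.3.3 with edgeR 4.0.16 (filterByExpr by group, TMM factors, quasi-likelihood test, 1 mean per group over all 16 libraries). Adjusted p values are 2-sided Benjamini-Hochberg values over 15240 tested genes, with a threshold of 0.05. CPM are counts per 1000000 of the TMM-adjusted library size. CPM per kb divide by exon length, the union of all exons of the gene in GENCODE M21. Other settings were DESeq2 1.42.0, RLE factors, other filters, the compared groups alone, a replicate block, an offset for GC content and length, sex, and leaving out libraries. The code was tested on simulated data. Libraries differed from each other by more than counting noise. The design text speaks of biological replicates, but the labels do not tie libraries to animals, so p values measure the spread between libraries.

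Same-numbered libraries deviated together in the zone comparison of mutants (correlations of 0.263 to 0.327), so the blocked value stands beside that result. In the zone comparison of controls they were -0.0059, 0.395, 0.452 and 0.134 for numbers 1 to 4, and the blocked value is given there too. By zone, only number 1 in mutants and number 3 in controls were best matches both ways. Between genotypes some correlations were below 0.1. Numbers 1 and 2 were male and 3 and 4 female in every group, so the block also takes up sex.

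Values are named for called members (at most 6 per direction in full, the largest changes), the 2 uncalled members of smallest p per comparison, the highest and lowest per length of each role, called partners, Ezh2 and the sort genes. Nfe2l1 and the immune subunits were added after their values were seen. Members, roles and lists were chosen with earlier results of these data known.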

Additional observations from a re-analysis of the deposited data

Results flagged for a closer look

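Samples that stood far from the other 3 of their group were sought in 124 groups of 4 libraries, and 11 were found. Chance gives about 5% of groups. Control centrocyte library 1 was high for the summed core particle (2149 CPM), for Psmd8 (266 CPM) and for Psmd13 (170.3 CPM). Mutant centrocyte library 3 was high for Psma3 (35.4 CPM), Psmd10 (63.6 CPM) and the ratio of summed core to regulatory CPM (0.943). Mutant centroblast library 2 was high for the summed regulatory particle (3882 CPM) and for Psmg4 (17.3 CPM). Control centroblast library 4 was high for Psmb1 (383 CPM) and Psmd7 (148 CPM), and mutant centroblast library 3 stood apart for Psmd11 (119 CPM).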

How the results depend on the processing

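The counts of members that fell in control centrocytes kept within 1.5 times of 22 under every setting other than leaving out 1 library. For mutant over control centrocytes, 3 rose, 5 with the offset for GC content and length, 5 with the replicate block and that offset, and 0 without mutant centrocyte libraries 3 and 4. For mutant over control centroblasts, 1 rose with the offset. For centrocytes over centroblasts in mutants, 3 fell with the replicate block in place of 5, 20 fell and 1 rose with the offset, and 20 fell and 1 rose with block and offset. In controls, 2 rose with the offset and 2 with block and offset. The offset also turned the split of all called genes, to 2788 higher and 1624 lower for mutant over control centrocytes (1123 and 1394 without it), to 1629 higher and 1203 lower for centroblasts (619 and 976 without it), and to 2315 higher and 3590 lower by zone in controls (2270 and 1960 without it). The cause of these changes was not tested. The block changed no other count by over 1.5 times: in controls 20 fell with it, without Psmc4 and Psmd2. Leaving out 1 library gave 0 to 1 rises for mutant over control centroblasts, 1 to 9 for mutant over control centrocytes, 2 to 10 falls by zone in mutants and 11 to 26 in controls. Core minus regulatory particle, which has no test, ranged from 0.12 to 0.22 for mutant over control centrocytes when 1 library was left out, from 0.045 to 0.12 for centroblasts, from -0.0070 to 0.11 by zone in mutants and from -0.059 to -0.010 by zone in controls. It changed sign by zone to 0.016 in controls with the offset (0.024 with block and offset), and in mutants to -0.011 without mutant centrocyte libraries 3 and 4 and -0.0070 without library 3 alone. Of 5547 values of the 43 members in 5 comparisons under other settings, 5330 stayed on the same side of the threshold, 109 gained and 108 lost a call, and 53 of the gains came with the offset. The sign changed in 223, none of them called on either side. The interaction was not fitted on compared groups alone, since it needs all 4.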
